A study of Mus musculus with 7 samples.

Results

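Gene expression in dissected mouse basal cell carcinoma was compared with gene expression in normal newborn epidermis across the transcriptome. Of the 7 Affymetrix arrays of the study 4 were used, namely 2 arrays of dissected basal cell carcinoma and 2 of normal epidermis taken at postnatal day 0 (P0). Total RNA was isolated with a micro-scale column kit, and biotinylated cRNA was made from 100 ng of RNA for each of the 4 arrays. The remaining 3 arrays held a mouse cell line from such a tumour, PDKC1, given the Smoothened inhibitor cyclopamine for 0 h, 6 h or 10 h. The untreated (0 h) array, made from 2 µg of RNA, is used only to place tissue levels beside those of cultured carcinoma cells. All probe sets assigned to 1 gene entered the comparison, 34945 of 45101 probe sets on the array, and they stood for 18193 genes. The labels say neither the genotype and age of the tumour-bearing mice nor whether the arrays of a group came from separate animals. The p-values thus measure only the spread between 2 arrays a group, which may be technical in the epidermis. The 2 tumour arrays differed widely in sex-linked RNA, given in the marker values, so they were not repeats of 1 RNA. Age cannot be told apart from tissue in this design, because every epidermis array was from newborn mice.

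Basal cell carcinoma is a skin tumour of basal or follicular keratinocytes in which the Hedgehog pathway is active. Its cells grow as nests that resemble the basal layer and hair follicle buds, embedded in stroma. Epidermis is a layered sheet in which basal cells stop dividing, move up, fill with keratins and lipid granules, and die as cornified cells, and at birth this barrier has just been completed. Both samples are mixtures of cells, and in bulk tissue fewer cells of a type and less RNA per cell cannot be told apart.

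The labels were checked against marker genes. Suprabasal and cornified markers summed to intensities of 116656 and 56762 in tumours 1 and 2 against 372779 and 366778 in epidermis 1 and 2, and Hedgehog response genes to 42509 and 50307 in tumours 1 and 2 against 12828 and 13382 in epidermis 1 and 2. Basal keratinocyte markers were bright in all 4 arrays, at 125571 and 89325 in tumours 1 and 2 against 114527 and 139538 in epidermis 1 and 2. Of 13 follicle epithelium markers 12 were higher in the tumours by the test described in the next paragraph. Markers of other cell types also moved with the tissue. Fibroblast markers summed to 68856 and 81069 in tumours 1 and 2 against 15360.4 and 12473 in epidermis 1 and 2, mast cell markers to 5830.2 and 5985 in tumours 1 and 2 against 1553 and 1138 in epidermis 1 and 2, and skeletal muscle markers to 19979 and 3712 in tumours 1 and 2 against 679 and 716 in epidermis 1 and 2. Antigen presenting cell markers summed to 19562 and 14413 in tumours 1 and 2 against 9525 and 9889 in epidermis 1 and 2, and 4 of 10 were called. These were the MHC class II genes H2-Aa, H2-Eb1, H2-Ab1 and Cd74, at 11239 and 8538 in the tumours against 523 and 534 in the epidermis in all, while the other members summed to 8323 and 5875 in the tumours against 9002 and 9354 in the epidermis. T and NK cell markers summed to only 335 and 544 in tumours 1 and 2 against 350.4 and 312 in epidermis 1 and 2. The 2 tumours differed in sex-linked RNA: Xist, the X inactivation transcript of females, was at 362 and 35011 in tumours 1 and 2, and the Y-linked gene Eif2s3y was at 2306 and 37.8. Both were present in each epidermis array, with Xist at 3902 and 3035 and Eif2s3y at 1074 and 1749.8. RNA quality differed as well, since the Actb 3' to 5' ratio was 11.3 and 93.1 in tumours 1 and 2 against 3.98 and 2.84 in the epidermis. It was 1.15 in untreated PDKC1 cells, whose array was made from more RNA. The part of these differences in the results was not tested.

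Of the 18193 genes 3015 were higher and 2267 lower in the tumours (limma on log2(intensity + 16), Benjamini-Hochberg adjusted p under 0.05). These are 16.6 percent and 12.5 percent of all genes, and they are the background against which each gene group is read. The arrays of the 2 groups did not overlap for any called gene. With 2 arrays a group a call nearly requires this, so it adds no support. For the held genes defined below it is part of the rule. Differences are log2 values, tumour minus epidermis, with the standard error of the fit and 2 arrays per group. They understate the change of genes whose dimmer group is near or under 16. The median of the higher genes was 1.75 and that of the lower genes -1.62. At least 8-fold differences were found for 345 higher and 277 lower genes. The median probe set was at 118.2 and 127.9 in the tumours and at 71.0 and 75.3 in the epidermis. The split depended on how arrays were scaled. With quantile normalization 2146 genes were higher and 2665 lower, with each array centred on its median 1463 and 4713, and with arrays scaled to the 75th percentile 2013 and 3752. The median gene differed by 0.09 as deposited, by -0.20 after quantile normalization, by -0.55 after centring and by -0.24 after 75th percentile scaling, so gene groups are also given relative to it. Without epidermis array 1 the counts were 840 and 537, and without epidermis array 2 they were 965 and 619. Leaving out epidermis array 1 likewise cut the called members of 117 of the 129 gene lists by over 1.5 times, and leaving out epidermis array 2 those of 113. Leaving out tumour 1 raised them by over 1.5 times in 15 lists and leaving out tumour 2 in 7. A gene is said to have held where it stayed called in the same direction under 12 alternatives: 3 scalings, 2 pseudocounts, 2 other choices of probe set, no variance trend and each tissue array left out. The number of members that held therefore already takes these left-out arrays into account. A fit without 1 epidermis array draws its spread from the tumour pair alone, which differed more between arrays than the epidermis pair. Counts of a list under another scaling stand in brackets where the share of higher genes among its calls moved by over 10 percentage points or the order of its counts turned. By the rule for held genes 641 genes were higher (3.52 percent) and 457 lower (2.51 percent).

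**Figure D1:**
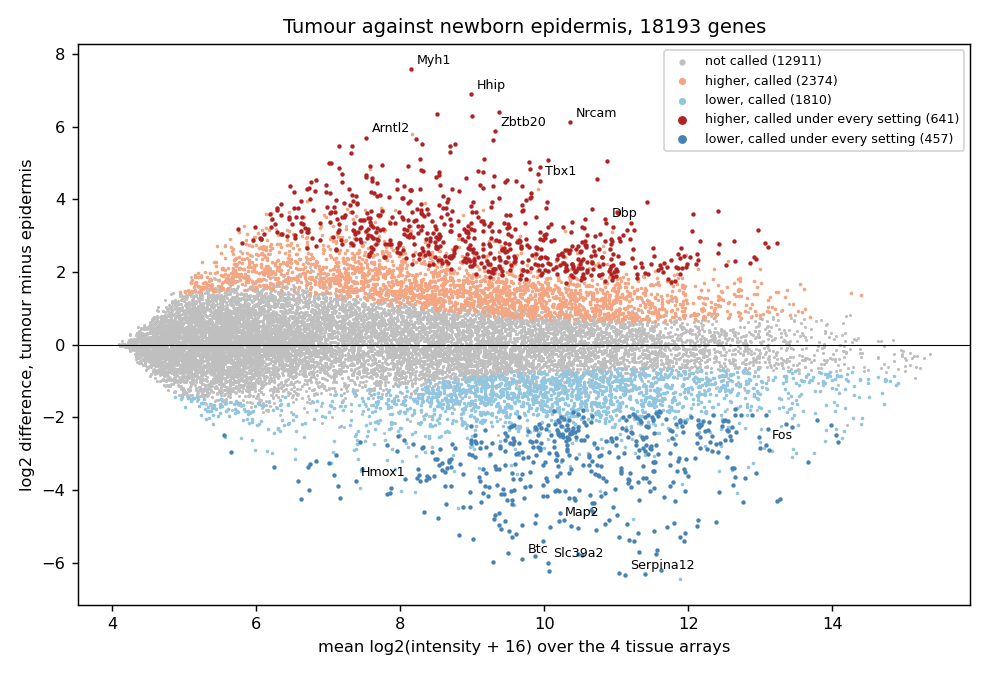
Log2 difference, tumour minus epidermis, against the mean log2(intensity + 16) of the 4 tissue arrays, one point per gene. Grey points were not called, pale points were called and dark points held under the 12 alternatives of the rule (641 higher in red, 457 lower in blue). Held genes reach from 7.58 for Myh1 down to -6.33 for Serpina12.

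The largest held rises among bright genes joined a skeletal muscle myosin and a Hedgehog target with genes of adhesion, transport, transcription and defence. Myh1, a fast muscle myosin, was at 6768 and 2271 in the tumours against 2.10 and 7.40 in the epidermis (7.58 ± 0.53, adjusted p = 0.000515). The skeletal muscle marker sum was higher in tumour 1 than in tumour 2 as well, and its part in the result was not tested. Nrcam, a neuronal cell adhesion molecule at chr12:44328786-44605194 (GRCm38.p6), was at 8909.6 and 13420.1 in the tumours against 144 and 136 in the epidermis (6.13 ± 0.26, adjusted p = 0.000245). In PDKC1 cells it was at 7.50. Zbtb20, a BTB zinc finger repressor at chr16:42875689-43634392, was at 4345 and 5427 in the tumours against 39.8 and 107 in the epidermis (5.88 ± 0.40). Both tumours were far above both epidermis arrays for each of these genes. Npr2, the receptor guanylyl cyclase for C-type natriuretic peptide, was at 4287 and 2627 in the tumours against 87.2 and 74.6 in the epidermis (5.12 ± 0.31). Slc5a3, a sodium-coupled myo-inositol carrier, was at 8868 and 13104 in the tumours against 319 and 297 in the epidermis (5.06 ± 0.25). Slc2a13, which carries myo-inositol with protons, was among the held solute carriers too (4.59 ± 0.50). Both inositol carriers were therefore higher in both tumours. Aff3, an AF4 family transcription elongation gene, was at 4482 and 5717 in the tumours against 149.6 and 127 in the epidermis (5.04 ± 0.24), and Greb1l was at 2763 and 2707 in the tumours against 50.8 and 40.5 in the epidermis (5.48 ± 0.28). Secreted products on this list were the beta-defensin Defb6 (6.42 ± 0.24), the ribonuclease angiogenin, Ang (6.29 ± 0.44), the cartilage matrix protein Cilp (5.54 ± 0.34), Crispld1 (5.31 ± 0.29) and S100a8 (5.63 ± 0.54). S100a8 and S100a9, which form calprotectin, were both higher, while the neutrophil granule genes Camp, Ltf, Mpo and Elane were not called and were at 98.3 or less in each tissue array. The scaffold gene Lin7a (5.46 ± 0.65), the carbonic anhydrase gene Car3 (6.35 ± 0.38), the chromatin-reader family gene Pwwp3b (5.68 ± 0.67) and Odr4 (5.54 ± 0.65) completed the 20 with Hhip, Arntl2, Clec10a and H2-Aa.

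The largest held falls included protease inhibitors, carriers, enzymes and a growth factor of the epidermis. Serpina12, the serine protease inhibitor vaspin, was at 579.5 and 86.1 in the tumours against 20378 and 19388 in the epidermis (-6.33 ± 0.72, adjusted p = 0.00162). Npl, an enzyme that breaks down sialic acid, was at 906 and 84.6 in the tumours against 22845 and 25274 in the epidermis (-6.30 ± 0.89). Tumour 1 kept more Npl than tumour 2, and both were under the epidermis. Slc39a2, a zinc importer at chr14:51893082-51896745, was at 96.5 and 139 in the tumours against 8902 and 8088 in the epidermis (-6.01 ± 0.25, adjusted p = 0.000245). Slc46a2, a solute carrier, was at 85.1 and 80.5 in the tumours against 5709 and 4903 in the epidermis (-5.75 ± 0.24). These 2 carriers were low in both tumours alike. Btc, the EGF receptor ligand betacellulin at chr5:91357261-91402994, was at 122 and 67.9 in the tumours against 7371 and 5486 in the epidermis (-5.89 ± 0.32). Hal, histidine ammonia-lyase, which makes urocanic acid in the stratum corneum, was at 1070.3 and 152 in the tumours against 21283 and 21233 in the epidermis (-5.64 ± 0.76). Sdr16c5, which oxidises retinol, was at 312 and 326 in the tumours against 13261 and 13222 in the epidermis (-5.31 ± 0.19), and Tesc, a calcium-binding protein gene, at 318 and 29.7 in the tumours against 10797 and 8032 in the epidermis (-6.24 ± 0.82). The rest were the protease inhibitors Serpinb12 (-6.29 ± 0.56), Serpinb7 (-5.77 ± 0.83) and Stfa2l1 (-5.78 ± 0.44), the keratin gene Krt23 (-5.75 ± 0.67), Cfap57 (-6.21 ± 0.61), Dkkl1 (-5.995 ± 0.49), the lipoxygenase gene Alox12b (-5.81 ± 0.48), the glutathione transferase gene Gsta2 (-5.41 ± 0.68), the kallikrein gene Klk8 (-5.39 ± 0.34), the phosphatase gene Dusp14 (-5.36 ± 0.73), and Ivl and Cdsn. Stefin, Serpinb, Gsta and muscle myosin genes have near-identical copies, and the probe sets may not separate them.

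Across gene lists the shares called ranged from lists with no member lower to lists with no member higher. Collagen, matrix glycoprotein and primary cilium genes were among the lists with the most higher members. Proteasome, respiratory chain, ribosomal and translation genes were among those with the most lower members.

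**Figure D2:**
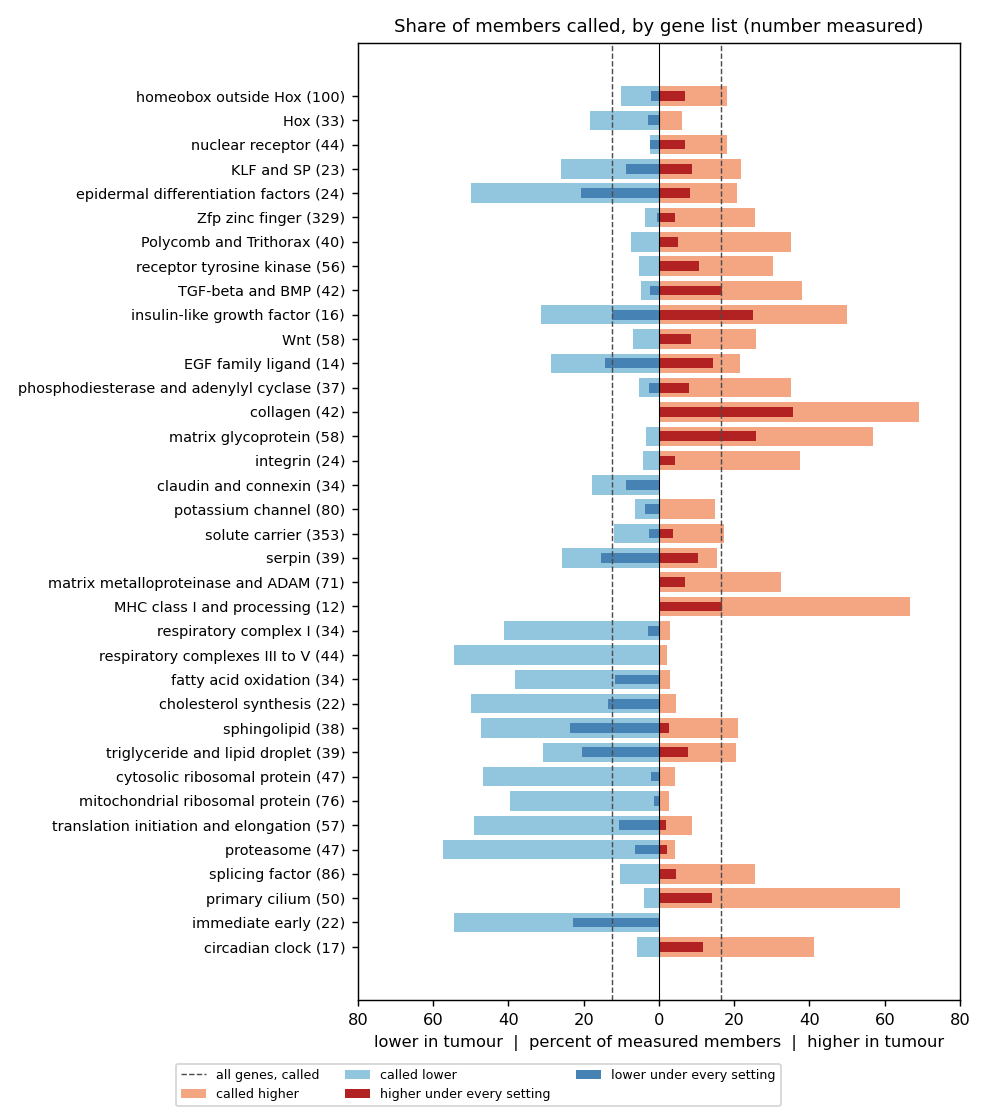
Percent of measured members called higher (right) and lower (left) in 36 gene lists, with the number measured in brackets. Pale bars are called genes and dark bars genes that held under the 12 alternatives of the rule. Dashed lines are the shares called over all genes (16.6 percent higher, 12.5 percent lower), so pale bars past a dashed line exceed the background.

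Transcription factor families differed in the share called, and homeobox genes outside Hox lay near all genes. Of these homeobox genes 18.0 percent were higher and 10.0 percent lower, against 16.6 and 12.5 percent of all genes. Hox genes had 6.1 and 18.2 percent. Of 100 homeobox genes outside the Hox clusters 18 were higher and 10 lower (7 and 2 held, 12 and 16 with centring, 14 and 12 with 75th percentile scaling). The mesenchymal homeobox gene Prrx1 was at 1693 and 1892 in the tumours against 192 and 141 in the epidermis (3.32 ± 0.27, adjusted p = 0.000713), Meox2 at 249 and 355 in the tumours against 30.4 and 8.20 in the epidermis (3.23 ± 0.50) and the zinc finger homeobox repressor gene Zeb2 at 727 and 849 in the tumours against 70.1 and 74.8 in the epidermis (3.18 ± 0.32). These 3 rose together with fibroblast markers, of which 10 of 12 were higher, and the part of fibroblast RNA in it was not tested. In PDKC1 cells Prrx1 was at 18.5, Meox2 at 25.9 and Zeb2 at 541, so the cultured line held Zeb2 near its tumour level. Vax1, best known from the ventral forebrain and eye, was at 471 and 395 in the tumours against 49.3 and 14.7 in the epidermis (3.32 ± 0.49). Among the lower homeobox genes were Pou3f1, also called Oct6, a suprabasal keratinocyte factor (-3.02 ± 0.40), and the chromatin organiser gene Satb1 (-2.55 ± 0.22). Of 33 Hox genes 2 were higher and 6 lower (0 and 1 held, 0 and 9 with quantile normalization, 0 and 11 with centring, 0 and 9 with 75th percentile scaling). Hoxc4 was the one that held, at 11.1 and 4.50 in the tumours against 229.7 and 225 in the epidermis (-3.37 ± 0.44). Of 15 T-box genes 5 were higher and 0 lower (0 with an unadjusted p under 0.05, 2 and 0 held), with Tbx1 at 4644 and 4702 in the tumours against 155 and 229.8 in the epidermis (4.52 ± 0.26, adjusted p = 0.000432) and the MAX-binding gene Mga higher by 1.92 ± 0.26. Leaving out epidermis array 1 left 4 T-box genes called higher, and leaving out array 2 left 2.

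Nuclear receptors and KLF factors, many of which read steroid hormones, retinoids or metabolic state, were called in both directions. Against 16.6 percent of all genes higher and 12.5 percent lower, nuclear receptors had 18.2 and 2.3 percent. KLF and SP factors had 21.7 and 26.1 percent. Of 44 nuclear receptors 8 were higher and 1 lower (3 and 1 held, 7 and 4 with quantile normalization, 5 and 9 with centring, 5 and 4 with 75th percentile scaling). Nr3c2, the mineralocorticoid receptor, was at 273 and 177 in the tumours against 16.2 and 9.30 in the epidermis (3.05 ± 0.46, adjusted p = 0.00434). Vdr, the vitamin D receptor, was at 3620.1 and 4720.5 in the tumours against 862 and 661 in the epidermis (2.43 ± 0.24), and Cyp27b1, which makes the active hormone, was also higher (3.15 ± 0.40). Rora, a retinoid-related orphan receptor, was the one lower, at 1637 and 533 in the tumours against 8773 and 9154 in the epidermis (-3.24 ± 0.47). The level of Rora in PDKC1 cells (96.5) lay under both tissues. Of 23 KLF and SP factors 5 were higher and 6 lower (2 and 2 held, 3 and 11 with centring, 3 and 10 with 75th percentile scaling). Klf15, a glucocorticoid-responsive regulator of metabolism, was at 1039 and 822 in the tumours against 19.8 and 72.0 in the epidermis (4.07 ± 0.49), and Klf9 at 11171 and 18618 in the tumours against 1843 and 2377 in the epidermis (2.78 ± 0.30). Sp6, also called epiprofin, was lower at 256 and 109 in the tumours against 2936 and 3041 in the epidermis (-4.03 ± 0.38), as was Klf3 (-1.94 ± 0.24). Among SOX genes 3 were higher and 3 lower (1 and 1 held, 1 and 4 with quantile normalization, 1 and 5 with centring), of 19, with Sox13 higher (2.85 ± 0.38) and Sox7 lower (-2.50 ± 0.24). Of 37 forkhead genes 7 were higher and 2 lower (2 and 0 held, 2 and 4 with centring, 4 and 3 with 75th percentile scaling), and the held ones were Foxc1 (2.40 ± 0.22) and Foxp1 (2.25 ± 0.22), which act in follicle stem cells.

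Factors that drive epidermal differentiation were lower more often than genes at large. Of 24 such factors 5 were higher and 12 lower (2 and 5 held, 3 and 14 with centring), and the list median lay -0.96 from that of all genes. Ovol1, a zinc finger repressor that halts proliferation, was at 201 and 122 in the tumours against 2603 and 2816 in the epidermis (-3.98 ± 0.29, adjusted p = 0.000584). Grhl3, a grainyhead factor needed for the barrier, was at 326 and 246 in the tumours against 3095 and 2549 in the epidermis (-3.24 ± 0.25), and Zfp750, a target of p63, at 338 and 304 in the tumours against 2984 and 3293 in the epidermis (-3.23 ± 0.22). Both tumours lay far under both epidermis arrays for these 3 genes. Trps1, a GATA-type repressor of the follicle, went the other way, at 2107 and 4251 in the tumours against 188 and 241 in the epidermis (3.72 ± 0.36), and so did Tfap2b (2.05 ± 0.21). Trps1 was at 2185 in PDKC1 cells. These falls accompany those of cornified markers, of which 16 of 18 were lower, and the part of those markers in them was not tested. The differentiation factor genes called lower numbered 5 without epidermis array 1 and 5 without array 2.

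Mediators of Hippo, Wnt, cytokine and oxygen signalling were also split. Among 22 SMAD, TCF/LEF and TEAD genes 5 were higher and 4 lower (2 and 2 held, 3 and 6 with centring, 4 and 5 with 75th percentile scaling). Tcf7l1 (2.27 ± 0.20) and Tcf7l2 (2.22 ± 0.29), DNA-binding partners of beta-catenin, rose, while Tead4, a DNA-binding partner of YAP, fell from 607 and 601 in the epidermis to 37.7 and 4.70 in the tumours (-4.22 ± 0.53, adjusted p = 0.00235). The TEAD cofactor gene Vgll3 fell as well (-2.43 ± 0.27). Of 25 STAT, NF-kB, IRF and NFAT genes 4 were higher and 2 lower (1 and 1 held, 3 and 6 with centring, 4 and 5 with 75th percentile scaling). Nfatc1, which keeps follicle stem cells quiescent, rose (2.20 ± 0.29) and the interferon regulator gene Irf7 fell (-3.74 ± 0.26). Among 99 basic helix-loop-helix genes 19 were higher and 8 lower (2 and 1 held, 17 and 13 with quantile normalization, 13 and 22 with centring, 15 and 17 with 75th percentile scaling). The inhibitor of differentiation Id2 rose (2.18 ± 0.20), and Epas1, the hypoxia-inducible factor HIF-2alpha, fell from 13990.3 and 10751 to 2463 and 1158 (-2.85 ± 0.37). Of 18 hypoxia response genes 1 was higher and 6 were lower, the prolyl hydroxylase gene Egln3 (-3.48 ± 0.22) and Higd1a (-2.32 ± 0.21) among the lower and Car12, a carbonic anhydrase gene (2.20 ± 0.26), the higher one. Of 24 ETS genes 3 were higher and 2 lower (0 and 0 held, 3 and 4 with quantile normalization, 2 and 7 with centring, 2 and 4 with 75th percentile scaling). Etv4 (2.81 ± 0.54) and Ets2 (-1.33 ± 0.24), the larger rise and fall, were not called when either epidermis array was left out.

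**Figure D3:**
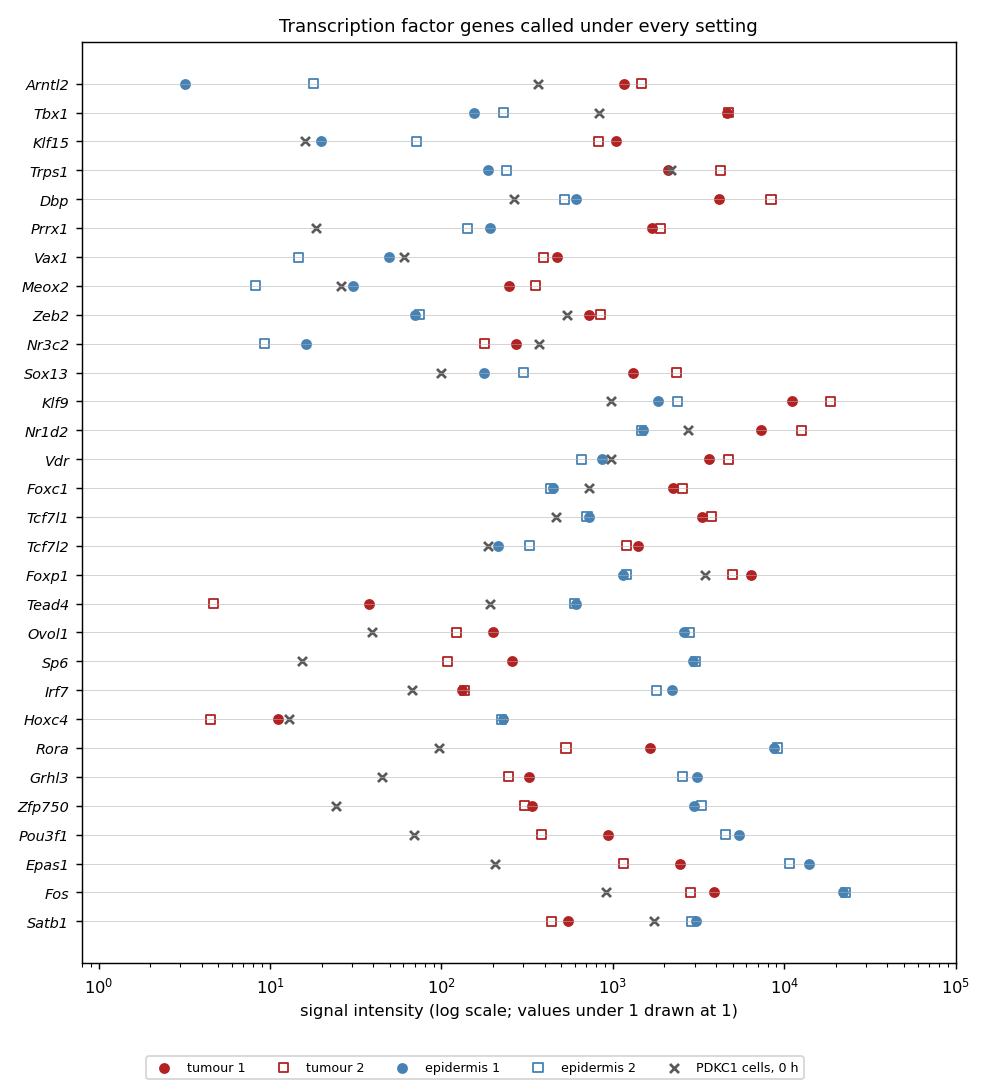
Signal intensity on a log axis of 30 transcription factor genes that held under the 12 alternatives of the rule. Both tumours are in red, both epidermis arrays in blue and untreated PDKC1 cells are grey crosses. The 18 genes at the top, from Arntl2 to Foxp1, were higher in both tumours, and the 12 from Tead4 to Satb1 were lower in both.

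Immediate early genes were lower in the tumours more often than genes at large. Serum, stress and growth factors induce these genes within minutes, largely through cAMP response elements and through CArG boxes bound by serum response factor. Of 22 measured 0 were higher (1 with an unadjusted p under 0.05) and 12 lower (0 and 5 held). The list median was -1.44. Fos was at 3881 and 2826 in the tumours against 22027 and 22751 in the epidermis (-2.75 ± 0.24, adjusted p = 0.000793), the mRNA-decay gene Zfp36 at 577 and 259 in the tumours against 3206 and 4035 in the epidermis (-3.16 ± 0.38), the MAP kinase phosphatase gene Dusp1 at 2533 and 1414 in the tumours against 10707 and 10183 in the epidermis (-2.45 ± 0.30) and the antiproliferative gene Btg2 at 532 and 438 in the tumours against 2795 and 2653 in the epidermis (-2.46 ± 0.22). For each of these 4 genes both tumours lay under both epidermis arrays. Egr1 and Egr3, zinc finger factors of the same class named after their values were seen, were bright in all 4 arrays and not called. Egr1 was at 10889.8 and 8499 in the tumours against 9632 and 11033 in the epidermis and Egr3 at 7278 and 7206 in the tumours against 10123 and 8065 in the epidermis. With epidermis array 1 left out 5 immediate early genes were called lower, and with array 2 left out 5.

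The upstream regions of these 4 genes are shown because the genes moved together. Each is the 250 bases before the annotated start (RefSeq, GRCm38.p6), read on the gene's strand, with capitals for the motifs TGACG (the core of a cAMP response element, either strand) and the CArG box (either strand). All promoter windows of this length numbered 32851, of which 17.8 percent held TGACG and 1.5 percent a CArG box. Among 17 immediate early genes with a window 10 held TGACG and 2 a CArG box. A gene counted if any of its windows matched, so these counts and the shares of single windows are unlike measures. Capitals that run to TGACGTCA are 2 overlapping TGACG matches on opposite strands.
Fos, chr12:85473640-85473889 on the plus strand: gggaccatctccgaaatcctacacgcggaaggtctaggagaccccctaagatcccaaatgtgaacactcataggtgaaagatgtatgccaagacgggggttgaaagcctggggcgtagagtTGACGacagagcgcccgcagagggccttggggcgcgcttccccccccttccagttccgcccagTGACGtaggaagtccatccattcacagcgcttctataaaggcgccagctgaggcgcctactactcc
Dusp1, chr17:26508473-26508722 on the minus strand: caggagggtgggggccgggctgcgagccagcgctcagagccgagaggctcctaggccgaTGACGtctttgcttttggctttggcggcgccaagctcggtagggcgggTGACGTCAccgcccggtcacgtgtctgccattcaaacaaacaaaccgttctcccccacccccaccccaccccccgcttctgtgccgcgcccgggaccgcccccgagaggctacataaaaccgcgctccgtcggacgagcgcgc
Btg2, chr1:134079156-134079405 on the minus strand: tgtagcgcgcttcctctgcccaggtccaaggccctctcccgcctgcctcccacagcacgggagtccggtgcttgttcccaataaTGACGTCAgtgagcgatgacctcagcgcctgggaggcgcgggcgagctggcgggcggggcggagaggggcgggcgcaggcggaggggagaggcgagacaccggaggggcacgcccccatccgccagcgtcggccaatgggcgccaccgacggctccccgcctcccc
Zfp36, chr7:28379229-28379478 on the minus strand: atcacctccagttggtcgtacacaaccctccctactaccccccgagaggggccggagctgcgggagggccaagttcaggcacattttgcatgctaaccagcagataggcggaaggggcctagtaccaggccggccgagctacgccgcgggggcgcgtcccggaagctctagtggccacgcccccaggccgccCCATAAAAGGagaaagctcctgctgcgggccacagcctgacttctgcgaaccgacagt
Fos held 2 TGACG matches, starting 129 and 66 bases before its start. Dusp1 held 3, the farthest 191 bases before its start, and Btg2 held 2, at 166 and 163 bases. In both genes a pair on opposite strands overlapped. Zfp36 held 1 CArG box 58 bases before its start and no TGACG. A match describes the letters in the window and is not evidence that a factor binds there.

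Circadian clock genes, a feedback loop in which BMAL1 and CLOCK drive PER, CRY and PAR-bZIP factors, numbered 17, of which 7 were higher and 1 lower (2 and 0 held, 5 and 2 with quantile normalization, 4 and 4 with centring, 5 and 3 with 75th percentile scaling). Dbp, a PAR-bZIP output factor, was at 4187 and 8376 in the tumours against 613 and 519 in the epidermis (3.36 ± 0.34, adjusted p = 0.00116). Nr1d2, the repressor REV-ERBbeta, was at 7296 and 12584 in the tumours against 1499.8 and 1478 in the epidermis (2.67 ± 0.29, adjusted p = 0.00135). Arntl2, a paralogue of the BMAL1 gene, was at 1169 and 1472 in the tumours against 3.20 and 18.0 in the epidermis (5.70 ± 0.43, adjusted p = 0.000623), counted here with the helix-loop-helix genes. Per3, named after its values were seen, was at 645 and 997 in the tumours against 188 and 168 in the epidermis (2.08 ± 0.32, adjusted p = 0.00460) and was not called without epidermis array 1 or 2. The labels do not give the hour at which each tissue was taken. Dropping epidermis array 1 left 2 clock genes called higher, and dropping array 2 left 2. The upstream windows of Nr1d2 and Per3, a pair that rose, are shown with capitals for AGGTCA (a half-site that nuclear receptors share), TTATGTAA (a D-box) and CACGTG (an E-box), each searched on both strands.
Nr1d2, chr14:18239107-18239356 on the minus strand: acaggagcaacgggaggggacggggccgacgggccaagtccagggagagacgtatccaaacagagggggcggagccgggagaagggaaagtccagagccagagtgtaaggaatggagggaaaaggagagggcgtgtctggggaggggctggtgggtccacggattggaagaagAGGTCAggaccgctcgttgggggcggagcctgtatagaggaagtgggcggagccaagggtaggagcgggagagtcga
Per3, chr4:151044666-151044915 on the minus strand: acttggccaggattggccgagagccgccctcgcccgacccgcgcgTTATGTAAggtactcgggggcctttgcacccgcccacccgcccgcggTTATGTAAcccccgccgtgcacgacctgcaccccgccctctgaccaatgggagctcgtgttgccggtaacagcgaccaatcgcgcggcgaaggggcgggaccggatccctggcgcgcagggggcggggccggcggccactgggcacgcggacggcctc
Nr1d2 held 1 AGGTCA match, 77 bases before its start, and Per3 held 2 D-boxes, at 205 and 158 bases. Of the 32851 windows 4607 held AGGTCA, 269 (0.8 percent) TTATGTAA and 1978 (6.0 percent) CACGTG, and among 15 clock genes with a window 4, 1 and 5 did. A clock gene too counted if any of its windows matched, unlike the shares of single windows.

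Chromatin and zinc finger genes were higher more often than genes at large on the deposited scale. For remodeller and deacetylase genes this was not so with centring or 75th percentile scaling. Under these 1463 and 2013 of all 18193 genes were higher. Of 329 genes whose symbol starts with Zfp, most of them KRAB or C2H2 zinc finger factors, 84 were higher and 12 lower (52 and 19 with quantile normalization, 39 and 32 with centring, 56 and 22 with 75th percentile scaling). Their median was 0.58, which is 0.49 above that of all genes, and with centring it was -0.06. Zfp950 (4.03 ± 0.34), Zfp40 (3.73 ± 0.36), Zfp811 (3.52 ± 0.53) and Zfp934 (3.38 ± 0.59) were the largest of 14 that held. Without epidermis array 1, 16 Zfp genes were called higher, against 22 without array 2. Of 15 DNA methylation genes 6 were higher and 0 lower (1 with an unadjusted p under 0.05, 2 and 0 held, 6 and 1 with quantile normalization, 3 and 3 with centring, 3 and 1 with 75th percentile scaling). Tet2 and Tet1, dioxygenases that oxidise methylated cytosine, were at 3358 and 7175 in the tumours against 121 and 240.1 in the epidermis (4.71 ± 0.44, adjusted p = 0.000966) and at 409 and 503 in the tumours against 51.6 and 77.8 in the epidermis (2.56 ± 0.38). Of 40 Polycomb and Trithorax genes 14 were higher and 3 lower (2 and 0 held, 7 and 4 with centring), with the Polycomb genes Scmh1 (2.95 ± 0.39) and Phc3 (1.70 ± 0.21) among them. Of 43 remodeller and deacetylase genes 11 were higher and 3 lower (2 and 1 held, 6 and 4 with quantile normalization, 3 and 13 with centring, 4 and 11 with 75th percentile scaling), among them the helicase gene Chd6 (2.53 ± 0.24) and the mitochondrial deacetylase gene Sirt3 (2.31 ± 0.28). The counts called higher without epidermis array 1 and without array 2 were 4 and 3 for Polycomb and Trithorax genes and 2 and 2 for remodeller and deacetylase genes.

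Growth factor receptor genes were higher more often than lower on the deposited scale. Of 56 receptor tyrosine kinase genes 17 were higher and 3 lower (6 and 0 held, 14 and 5 with quantile normalization, 10 and 9 with centring, 14 and 8 with 75th percentile scaling), although their median of 0.25 lay only 0.16 above that of all genes. Ror2, a receptor for Wnt5a, was at 439 and 712 in the tumours against 12.8 and 35.7 in the epidermis (3.90 ± 0.48, adjusted p = 0.00211). Mertk, which recognises dying cells, was at 2236 and 2672 in the tumours against 171 and 208 in the epidermis (3.59 ± 0.25), and Fgfr1 at 2677 and 2385 in the tumours against 207 and 189.8 in the epidermis (3.57 ± 0.23). Fgfr1 and Ror2 were at 586 and 354 in PDKC1 cells, while Pdgfrb (4.68 ± 0.32), a receptor of stromal cells, was at 26.3. Of 18 receptor-type phosphatases 5 were higher and 2 lower (1 and 0 held, 3 and 2 with centring), with Ptpru at 906 and 579 in the tumours against 48.1 and 67.1 in the epidermis (3.34 ± 0.38). The receptor tyrosine kinase genes called higher numbered 7 without epidermis array 1 and 7 without array 2.

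Ligands of the EGF receptor and the insulin-like growth factor axis changed in both directions. Of 14 EGF family ligands and regulators 3 were higher and 4 lower (2 and 2 held, 2 and 5 with centring, 2 and 5 with 75th percentile scaling). Egf rose from 67.5 and 52.9 in the epidermis to 425 and 534 in the tumours (2.70 ± 0.37, adjusted p = 0.00297), and Lrig1, which restrains EGF receptors in follicle stem cells, rose too (2.34 ± 0.20). Btc and Ereg, or epiregulin, fell, the latter from 3403 and 2795 to 738 and 421 (-2.43 ± 0.30). Of 16 genes of the insulin-like growth factor axis 8 were higher and 5 lower (4 and 2 held). Igf1 was at 2438 and 2341 in the tumours against 143 and 142 in the epidermis (3.92 ± 0.24, adjusted p = 0.000436), and Igf2, a fetal growth factor, was at 318 and 168 in the tumours against 7307 and 8986 in the epidermis (-5.04 ± 0.32). The 2 ligands therefore differed in opposite directions in both tumours. The binding protein genes Igfbp7 (3.23 ± 0.23), Igfbp3 (2.99 ± 0.44) and Igfbp4 (2.25 ± 0.21) rose, and Igf2bp3, a fetal RNA-binding protein gene, fell (-2.65 ± 0.26). With epidermis array 1 left out 4 IGF axis genes were called higher, and with array 2 left out 5.

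TGF-beta and BMP genes, Wnt regulators and guidance cues were higher more often than lower on the deposited scale. Of 42 TGF-beta and BMP genes 16 were higher and 2 lower (7 and 1 held, 8 and 6 with centring, 12 and 6 with 75th percentile scaling). Bmp6 was at 2049 and 1338 in the tumours against 60.5 and 31.2 in the epidermis (4.80 ± 0.39, adjusted p = 0.000713), and Bmp2 was lower at 964 and 607 in the tumours against 5970.5 and 4045 in the epidermis (-2.66 ± 0.30). Tgfb3 (3.11 ± 0.35), the latent TGF-beta binding protein gene Ltbp2 (3.92 ± 0.36) and the follistatin-like gene Fstl1 (2.91 ± 0.37) were higher. Of 58 Wnt pathway genes 15 were higher and 4 lower (5 and 0 held, 11 and 7 with quantile normalization, 10 and 15 with centring, 13 and 11 with 75th percentile scaling). The secreted antagonist Wif1 was at 6519 and 1995 in the tumours against 192 and 217 in the epidermis (4.04 ± 0.51) and the antagonist Dkk2 at 926 and 704 in the tumours against 24.0 and 34.3 in the epidermis (4.20 ± 0.38). Wif1 was at 13275 in PDKC1 cells, above both tumours, and Dkk2 at 7.90. Of 24 Slit, Robo and netrin genes 9 were higher and 2 lower (3 and 0 held), with Slit2 at 942 and 1557 in the tumours against 34.3 and 64.6 in the epidermis (4.27 ± 0.41), Slit3 higher by 3.01 ± 0.40 and Flrt2 by 2.89 ± 0.22. Among 33 semaphorin, plexin and neuropilin genes 9 were higher and 4 lower (4 and 1 held). Nrp2, a co-receptor for semaphorins and VEGF, was at 4322 and 4483 in the tumours against 503 and 551 in the epidermis (3.03 ± 0.20). Sema5a (2.94 ± 0.24) and Sema6d (2.26 ± 0.28) rose too. The list also counted plexin domain-containing genes, which are not plexins. Of these Plxdc1 rose (4.04 ± 0.34) and Plxdc2 fell (-3.31 ± 0.40). The counts called higher without epidermis array 1 and without array 2 were 8 and 9 for TGF-beta and BMP genes, 6 and 7 for Wnt genes, 5 and 4 for Slit, Robo and netrin genes and 5 and 6 for semaphorin genes.

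Notch, FGF and ephrin genes held no member. Of 21 Notch pathway genes 1 was higher and 1 lower (2 and 1 with quantile normalization, 1 and 7 with centring, 1 and 5 with 75th percentile scaling). The ligand gene Jag1 (1.43 ± 0.24) was the higher and the feedback gene Nrarp (-1.001 ± 0.22) the lower, and neither call stood without either epidermis array. Of 22 fibroblast growth factors Fgf1 was higher (1.57 ± 0.35) and 3 were lower (0 and 3 with quantile normalization, 0 and 5 with centring), Fgf22 (-2.62 ± 0.35) and Fgf23 (-2.05 ± 0.45) among them. Fgf22 lost its call without epidermis array 2, and Fgf1 and Fgf23 without either epidermis array. Of 21 ephrin and Eph genes 4 were higher and 3 lower (0 and 0 held, 2 and 4 with quantile normalization, 1 and 7 with centring, 2 and 5 with 75th percentile scaling). Epha3 (1.60 ± 0.41) and Efnb2 (1.504 ± 0.22) were the larger rises and Epha1 (-1.88 ± 0.24) and Ephb6 (-1.51 ± 0.42) the larger falls, and none of these 4 calls stood without either epidermis array.

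Receptors for cytokines and peptides held a small number of large differences. Of 53 interleukin and cytokine receptor genes 10 were higher and 8 lower (3 and 4 held, 7 and 8 with quantile normalization, 6 and 13 with centring, 9 and 9 with 75th percentile scaling). Il31ra and Osmr, the 2 chains of the interleukin 31 receptor, were at 1094 and 627 in the tumours against 48.9 and 17.4 in the epidermis (4.18 ± 0.48, adjusted p = 0.00174) and at 4655 and 5401 in the tumours against 418 and 457 in the epidermis (3.47 ± 0.21, adjusted p = 0.000436). Both chains were thus higher in both tumours, and PDKC1 cells held 1097 of Osmr and 4.20 of Il31ra. Il17rd (3.12 ± 0.30) rose, whereas the interleukin 1 antagonists Il1rn (-2.85 ± 0.26) and Il1r2 (-3.03 ± 0.39), and Il20rb (-2.80 ± 0.33) and Il17rc (-2.43 ± 0.27), fell. Of 53 interleukin and interferon ligands 7 were higher and 9 lower (0 and 5 held, 3 and 10 with quantile normalization, 1 and 12 with centring, 3 and 10 with 75th percentile scaling). The falls included the interleukin 36 family genes Il1f5 (-5.01 ± 0.34), Il1f6 (-3.90 ± 0.31) and Il1f9 (-3.88 ± 0.35) and Il18 (-3.47 ± 0.25). Tnfrsf11b, or osteoprotegerin, a decoy receptor, was at 1023 and 548 in the tumours against 19.6 and 3.40 in the epidermis (4.86 ± 0.51) among 40 TNF superfamily genes, of which 6 were higher and 2 lower (1 and 0 held, 3 and 3 with quantile normalization, 2 and 6 with centring, 4 and 4 with 75th percentile scaling). Of 53 chemokine genes 7 were higher and 3 lower (3 and 0 held, 3 and 8 with quantile normalization, 3 and 8 with centring, 5 and 8 with 75th percentile scaling), and Ccl8 (3.28 ± 0.33), Cxcl12 (3.03 ± 0.30) and the scavenging receptor gene Ackr4 (2.41 ± 0.34) rose. Cxcl12 was at 7007 in PDKC1 cells against 1184 and 1357 in the tumours.

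Orphan and lipid receptor genes were called higher about as often as all genes. Phosphodiesterase and adenylyl cyclase genes, most of them for cyclic nucleotide enzymes, were called higher more often. Of 37 phosphodiesterase and adenylyl cyclase genes 13 were higher and 2 lower (3 and 1 held, 9 and 3 with quantile normalization, 6 and 3 with centring). Pde9a, which breaks down cyclic GMP (2.90 ± 0.45), and the cyclase genes Adcy7 (2.87 ± 0.25) and Adcy6 (2.42 ± 0.36) rose. Pde12, counted on this list although its product does not act on cyclic nucleotides, fell (-2.13 ± 0.23). Of 25 adhesion receptors 7 were higher and 3 lower (4 and 1 held, 5 and 4 with centring), with Adgra2 (3.84 ± 0.39), a Wnt7 co-receptor of vessels, and Adgrg6 (2.78 ± 0.34) higher and Adgrf4 lower (-3.85 ± 0.22). The lysophosphatidic acid receptor gene Lpar1 was at 3314 and 4027 in the tumours against 174 and 236 in the epidermis (4.07 ± 0.26, adjusted p = 0.000461), among 59 lipid and peptide receptors of which 9 were higher and 1 lower (1 and 0 held, 6 and 7 with quantile normalization, 6 and 10 with centring, 8 and 5 with 75th percentile scaling). Of 59 orphan Gpr genes 9 were higher and 3 lower (1 and 1 held, 4 and 5 with quantile normalization, 3 and 8 with centring, 4 and 5 with 75th percentile scaling). Gpr176, an orphan receptor, rose from 10.8 and 5.30 to 666 and 311 (4.30 ± 0.51), and Gpr160 fell from 2495 and 2596 to 409.5 and 197 (-3.09 ± 0.35). Among 31 MAP kinase phosphatase and Sprouty genes 4 were higher and 7 lower (0 and 3 held, 2 and 9 with quantile normalization, 2 and 10 with centring), Dusp14 falling from 3292 and 3287 to 176 and 17.8 and Dusp5 from 419 and 256 to 21.7 and 20.6 (-3.21 ± 0.45). Of 21 RGS genes, which switch G proteins off, 3 were higher and 1 lower (1 and 1 held, 2 and 3 with quantile normalization, 1 and 5 with centring, 1 and 1 with 75th percentile scaling). Rgs5, which also marks pericytes, rose (3.51 ± 0.53) and Rgs20 fell (-3.54 ± 0.35). Without epidermis array 1, 4 cyclic nucleotide enzyme genes were called higher, against 5 without array 2.

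**Figure D4:**
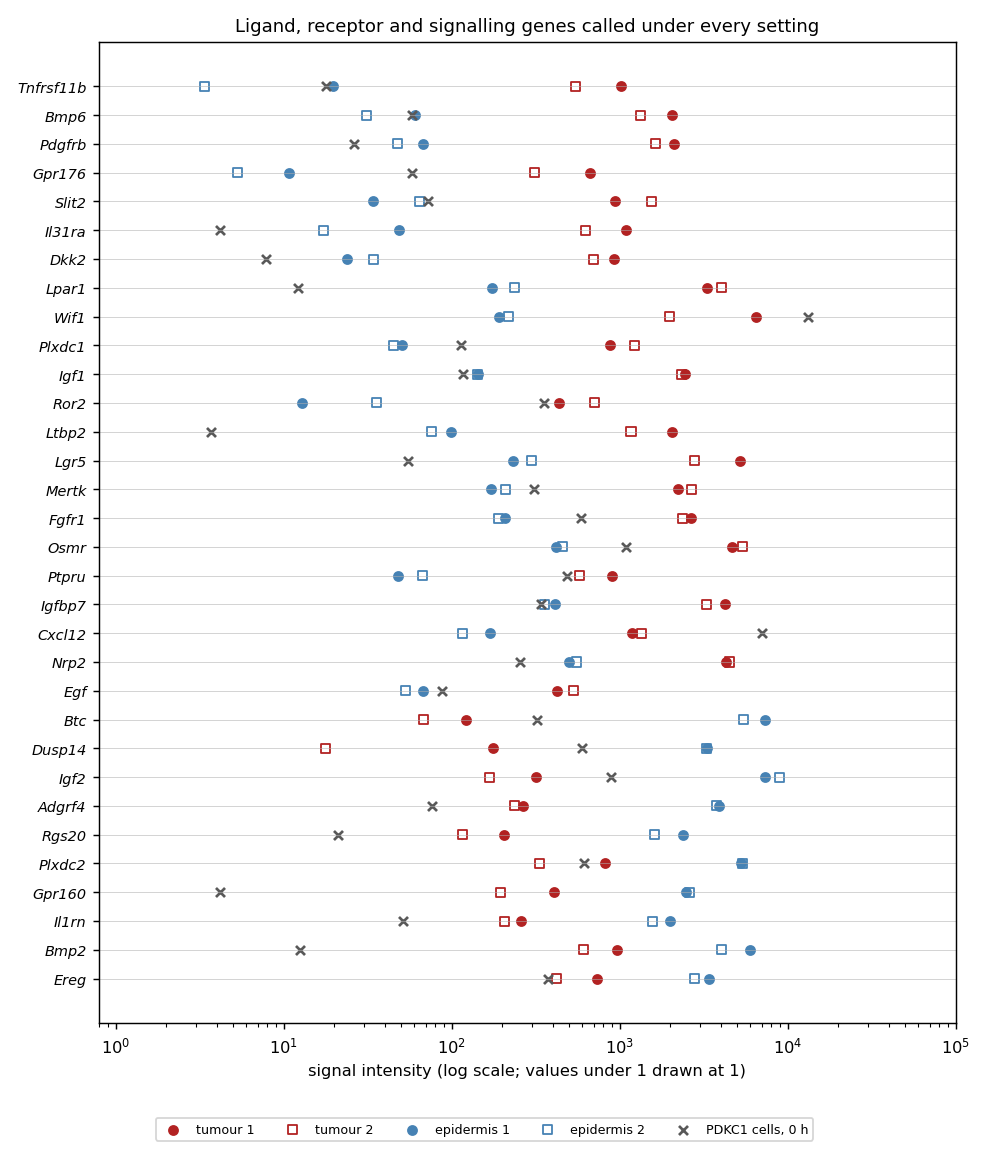
Signal intensity on a log axis of 32 ligand, receptor and signalling genes that held under the 12 alternatives of the rule. Both tumours are in red, both epidermis arrays in blue and untreated PDKC1 cells are grey crosses. The 22 genes from Tnfrsf11b to Egf were higher in both tumours, and the 10 from Btc to Ereg were lower in both.

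Collagen and matrix glycoprotein genes were higher far more often than lower. Claudin and connexin genes had 0 members called higher and a share called lower not far from that of all genes. Of 42 collagen genes 29 were higher and 0 lower (0 with an unadjusted p under 0.05, 15 and 0 held). Col4a4, a basement membrane chain, was at 539 and 1609.5 in the tumours against 19.2 and 38.2 in the epidermis (4.44 ± 0.57, adjusted p = 0.00242), Col9a3, a cartilage collagen chain, at 834 and 519 in the tumours against 26.9 and 18.4 in the epidermis (4.13 ± 0.42), and Col6a2 was higher by 3.92 ± 0.32. Of 58 matrix glycoprotein genes 33 were higher and 2 lower (15 and 0 held). The small leucine-rich proteoglycan genes Fmod (4.75 ± 0.44), Aspn (4.38 ± 0.44) and Omd (3.99 ± 0.66) and the microfibril gene Mfap4 (3.87 ± 0.58) were the largest. These rises accompany fibroblast markers (10 of 12 higher) and pericyte markers (7 of 12 higher), whose part in them was not tested. Of 24 integrin genes 9 were higher and 1 lower (1 and 0 held, 5 and 2 with centring), with Itgb8, which activates latent TGF-beta, higher by 3.06 ± 0.26. Cadherin and protocadherin genes (60 measured) had 10 higher and 2 lower (7 and 3 with quantile normalization, 7 and 5 with centring, 8 and 3 with 75th percentile scaling), including Fat4 (3.50 ± 0.36) and the mesenchymal cadherin gene Cdh11 (3.35 ± 0.29). Of 44 neural adhesion genes 11 were higher and 2 lower (6 and 0 held, 7 and 4 with centring, 8 and 3 with 75th percentile scaling), and beside Nrcam these included the synaptic genes Lrrtm1 (4.0003 ± 0.50) and Nlgn2 (3.68 ± 0.24) and the polysialyltransferase gene St8sia2 (2.93 ± 0.29). Claudin and connexin genes, which seal and couple epithelial cells, numbered 34, of which 0 were higher (3 with an unadjusted p under 0.05) and 6 lower (0 and 3 held). The share lower was 17.6 percent, against 12.5 percent of all genes, and the list median was -0.06. The falls that held were Cldn23 (-5.28 ± 0.41), Gjb5 (-4.55 ± 0.41) and Cldn4 (-4.38 ± 0.51). Counts called higher fell to 16 and 16 for collagen genes, 20 and 16 for matrix glycoprotein genes and 6 and 7 for neural adhesion genes without epidermis array 1 and without array 2.

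Solute carriers were called about as often as all genes, with some large single differences. Of 353 solute carriers 61 were higher and 42 lower (13 and 9 held, 41 and 55 with quantile normalization, 28 and 83 with centring, 43 and 61 with 75th percentile scaling). The zinc and manganese importer gene Slc39a14 rose (3.93 ± 0.29), as did Slco4a1 (3.69 ± 0.31), while the phosphate carrier gene Slc34a2 (-4.34 ± 0.28) and Slc37a2 (-3.89 ± 0.25) fell. Slc39a14 and Slc39a2, both zinc importers, thus differed in opposite directions, and of 31 zinc, copper and metallothionein genes 1 was higher and 7 lower. Among 30 amino acid transporters 8 were higher and 1 lower (4 and 1 held, 6 and 4 with quantile normalization, 5 and 5 with centring, 5 and 4 with 75th percentile scaling), with the taurine carrier gene Slc6a6 (3.17 ± 0.26) and the cationic amino acid carrier genes Slc7a6 (2.83 ± 0.23) and Slc7a2 (2.64 ± 0.26) rising and Slc6a14 falling (-2.85 ± 0.30). Of 80 potassium channel genes 12 were higher and 5 lower (0 and 3 held, 2 and 9 with quantile normalization, 2 and 10 with centring, 6 and 8 with 75th percentile scaling), and the members that held were the falls Kcnj12 (-3.75 ± 0.47), Kcnk2 (-3.02 ± 0.38) and Kcnk6 (-2.58 ± 0.21). Of 38 sodium and calcium channel genes 10 were higher and 1 lower (2 and 0 held). The calcium channel subunit genes Cacna2d2 (4.89 ± 0.30) and Cacna1d (3.22 ± 0.44) held. Among 61 TRP, chloride channel and aquaporin genes 14 were higher and 9 lower (5 and 3 held, 9 and 15 with centring, 10 and 11 with 75th percentile scaling), with the chloride channel gene Clcn2 (3.58 ± 0.35) and the cation channel genes Trpc2 (3.63 ± 0.38), Trpc4 (2.93 ± 0.46) and Trpv4 (2.83 ± 0.37) higher and Clic3 (-4.82 ± 0.38) and the glycerol channel gene Aqp9 (-2.78 ± 0.25) lower. Of 60 neurotransmitter receptor channels 6 were higher and 2 lower (0 and 0 held, 3 and 3 with quantile normalization, 3 and 4 with centring, 4 and 3 with 75th percentile scaling). Of 45 ABC transporters 6 were higher and 5 lower (3 and 0 held, 5 and 7 with quantile normalization, 4 and 14 with centring, 4 and 10 with 75th percentile scaling), the held ones being Abcc9 (3.39 ± 0.33), a potassium channel regulator of pericytes, Abca8a (3.45 ± 0.53) and the cholesterol exporter gene Abca1 (2.66 ± 0.21). Of 19 tetraspanin genes 4 were higher and 1 lower (1 and 0 held, 2 and 1 with quantile normalization, 2 and 4 with centring, 2 and 3 with 75th percentile scaling), with Tspan33 (2.25 ± 0.30) held.

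Proteases and their inhibitors were divided between matrix and barrier families. Of 71 matrix metalloproteinase and ADAM genes 23 were higher and 0 lower (5 with an unadjusted p under 0.05, 5 and 0 held, 14 and 3 with quantile normalization, 14 and 6 with centring, 16 and 4 with 75th percentile scaling). Reck, a membrane inhibitor of metalloproteinases, was at 2067 and 1232 in the tumours against 234 and 83.0 in the epidermis (3.36 ± 0.49, adjusted p = 0.00366), and the aggrecanase gene Adamts5 (2.92 ± 0.38), Adamts1 (2.63 ± 0.20) and Adamtsl1 (3.11 ± 0.39) also held. Of 68 kallikrein and other serine protease genes 4 were higher and 15 lower (2 and 6 held), with Klk9 (-3.89 ± 0.32) and Tmprss4 (-4.17 ± 0.51) lower and Prss12 (3.07 ± 0.32) and Prss35 (2.74 ± 0.34) higher. Of 39 serpin genes 6 were higher and 10 lower (4 and 6 held). The complement C1 inhibitor gene Serping1 (4.25 ± 0.39), Serpina7 (4.21 ± 0.51), a carrier of thyroid hormone, and Serpinf1 (2.69 ± 0.40), or pigment epithelium-derived factor, rose, and Serpinb3a fell (-4.70 ± 0.34). Of 35 cathepsin and cystatin genes 4 were higher and 9 lower (2 and 6 held, 3 and 14 with centring). The collagen-degrading protease gene Ctsk rose (4.05 ± 0.24), as did Ctso (2.63 ± 0.27), while Ctsd (-2.95 ± 0.42) and the stefin genes Stfa3 (-4.89 ± 0.23) and Csta1 (-4.82 ± 0.54) fell. Among 32 caspase and BCL2 genes 4 were higher and 6 lower (0 and 1 held, 1 and 10 with centring, 2 and 9 with 75th percentile scaling), and Casp14, the caspase of cornification, was the one that held (-4.94 ± 0.21). The metalloproteinase and ADAM genes called higher numbered 8 without epidermis array 1 and 10 without array 2.

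Among immune genes those of MHC class I presentation were mostly higher. Toll-like and lectin receptor genes were called less often than all genes as deposited. Of them 7.3 percent were higher and 9.1 percent lower, against 16.6 and 12.5 percent of all genes. MHC class I and processing genes numbered 12, of which 8 were higher and 0 lower (0 with an unadjusted p under 0.05, 2 and 0 held, 5 and 1 with quantile normalization, 4 and 1 with centring). Nlrc5, the transactivator of MHC class I, was at 471 and 731 in the tumours against 34.6 and 58.8 in the epidermis (3.29 ± 0.42, adjusted p = 0.00235), and the immunoproteasome subunit gene Psmb8 at 503 and 469 in the tumours against 88.3 and 70.2 in the epidermis (2.40 ± 0.35). With epidermis array 1 left out 2 MHC class I genes were called higher, and with array 2 left out 5. Of 26 interferon response genes 6 were higher and 1 lower (1 and 1 held), Parp14 rising (2.52 ± 0.33) while Irf7 fell. The MHC class II genes H2-Eb1 (3.77 ± 0.37), H2-Ab1 (2.85 ± 0.43) and Cd74 (2.86 ± 0.35) rose with H2-Aa, while the dendritic and Langerhans cell markers Itgax, Cd207 and Flt3 were not called. Clec10a, a galactose-binding lectin of macrophages and dendritic cells, was at 881 and 1088 in the tumours against 8.50 and 10.9 in the epidermis (5.28 ± 0.38), and Cd163, a macrophage scavenger receptor, at 404 and 544 in the tumours against 15.0 and 5.60 in the epidermis (4.23 ± 0.45). Of 11 macrophage markers 3 were higher and 1 lower (1 and 0 held, 3 and 2 with quantile normalization, 1 and 3 with centring, 1 and 2 with 75th percentile scaling). Of 55 toll-like and lectin receptor genes 4 were higher and 5 lower (2 and 2 held, 3 and 9 with quantile normalization, 3 and 11 with centring, 3 and 8 with 75th percentile scaling), with Clec4d (4.30 ± 0.61) higher and the keratinocyte gene Nlrp10 (-4.68 ± 0.27) and Clec2g (-3.25 ± 0.40) lower. Of 25 complement genes 7 were higher and 1 lower (4 and 1 held, 6 and 2 with quantile normalization, 6 and 2 with centring), C9 (3.52 ± 0.54), properdin or Cfp (2.49 ± 0.37) and C2 (2.05 ± 0.24) rising and clusterin, Clu, falling (-3.11 ± 0.23). Of 10 mast cell markers 6 were higher and 0 lower (0 with an unadjusted p under 0.05, 2 and 0 held), Hdc and Ms4a2 being the ones that held. Lymphocyte markers gave 0 calls by limma, among 8 for T and NK cells and 6 for B and plasma cells, and at an unadjusted p under 0.05 0 and 0 were higher and 0 and 0 lower.

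Genes of the mitochondrial respiratory chain and of fatty acid oxidation were lower more often than higher. Of 34 complex I genes 1 was higher and 14 lower (0 and 1 held, 3 and 11 with quantile normalization), and of 44 genes of complexes III to V 1 was higher and 24 lower (0 and 0 held). Their medians were -0.57 and -0.75, and -0.22 and -0.27 relative to all genes after quantile normalization. Ndufa4, counted here with complex I although its product belongs to complex IV, was the respiratory gene that held. It was at 1822 and 702 in the tumours against 8029 and 7596 in the epidermis (-2.77 ± 0.42, limma adjusted p = 0.00413). The ATP synthase genes Atp5g1 (-2.63 ± 0.21) and Atp5g2 (-2.46 ± 0.59) were called lower, but Atp5g1 lost the call when its probe sets were averaged, and Atp5g2 also without either epidermis array or the variance trend. Cox7c went the other way (1.81 ± 0.34) and was not called after quantile normalization or without either epidermis array. Counts called lower fell to 1 and 1 for complex I genes and 2 and 1 for genes of complexes III to V without epidermis array 1 and without array 2. Of 34 fatty acid oxidation genes 1 was higher and 13 lower (0 and 4 held). Acad9, an acyl-CoA dehydrogenase that also assembles complex I, was at 805 and 357 in the tumours against 5288 and 5916 in the epidermis (-3.34 ± 0.37), and Ech1 (-2.86 ± 0.32), Acaa2 (-2.40 ± 0.31) and the electron transfer flavoprotein gene Etfa (-2.12 ± 0.29) fell too. Without epidermis array 1, 6 fatty acid oxidation genes were called lower, against 5 without array 2. Of 34 TCA cycle genes 2 were higher and 6 lower (0 and 0 held, 0 and 18 with centring, 1 and 15 with 75th percentile scaling), with Idh2 (-2.04 ± 0.33) and the regulatory kinase gene Pdk3 (-1.99 ± 0.26) the larger falls. Idh2 lost its call without epidermis array 2 and Pdk3 without array 1.

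Sugar metabolism changed in single enzymes. Of 24 glycolytic genes 5 were higher and 7 lower (1 and 2 held, 4 and 13 with centring, 4 and 11 with 75th percentile scaling). Pfkl, the liver-type phosphofructokinase, was at 650.1 and 203 in the tumours against 3190.5 and 3664 in the epidermis (-3.17 ± 0.49, adjusted p = 0.00444), and Pgam1 fell (-2.04 ± 0.26). Eno3, the muscle enolase, rose (2.50 ± 0.32) as did skeletal muscle markers, whose part in it was not tested. Of 19 gluconeogenesis, glycogen and fructose genes 3 were higher and 1 lower (0 and 1 held, 1 and 3 with quantile normalization, 1 and 7 with centring, 3 and 6 with 75th percentile scaling), and the glycogen-targeting phosphatase gene Ppp1r3b held (-2.74 ± 0.32). Of 9 pentose phosphate genes 0 were higher (1 with an unadjusted p under 0.05) and 3 lower (0 and 1 held, 2 and 2 with quantile normalization), with a difference of -2.21 ± 0.30 for the lactonase gene Pgls.

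Cholesterol synthesis and sphingolipid genes were lower more often than higher, and other lipid enzymes changed in both directions. Of 22 cholesterol synthesis genes 1 was higher and 11 lower (0 and 3 held), with a median of -1.04. The sterol isomerase gene Ebp was at 1376 and 516 in the tumours against 7227 and 7425 in the epidermis (-3.09 ± 0.42, adjusted p = 0.00299), and the mevalonate kinase gene Mvk (-2.21 ± 0.29) and the sterol carrier gene Stard4 (-2.13 ± 0.22) fell. Of 38 sphingolipid genes 8 were higher and 18 lower (1 and 9 held, 4 and 17 with quantile normalization, 4 and 22 with centring, 5 and 20 with 75th percentile scaling). Smpd3, a neutral sphingomyelinase, was at 123 and 85.2 in the tumours against 3943 and 2768 in the epidermis (-4.80 ± 0.30), and Degs2, which makes phytoceramide (-4.15 ± 0.30), Cers3 (-3.71 ± 0.24) and the acid sphingomyelinase gene Smpd1 (-3.68 ± 0.42) also fell. Sgms2, a sphingomyelin synthase, was the sphingolipid gene that held as a rise (3.14 ± 0.24). Leaving out epidermis array 1 and then array 2 gave counts called lower of 3 and 5 for cholesterol synthesis genes and 10 and 12 for sphingolipid genes. Of 39 triglyceride and lipid droplet genes 8 were higher and 12 lower (3 and 8 held, 5 and 15 with quantile normalization, 4 and 17 with centring). The lipoprotein lipase gene Lpl (2.99 ± 0.24), the phosphatidate phosphatase gene Lpin1 (2.77 ± 0.35) and Plin4 (3.51 ± 0.62) rose, and the lipase-family genes Lipk (-4.28 ± 0.33), Pnpla1 (-4.95 ± 0.26) and Pnpla3 (-4.02 ± 0.25) and the acyltransferase gene Agpat5 (-4.91 ± 0.33) fell. Of 7 adipocyte markers, Plin4 among them, 3 were higher and 1 lower (1 and 1 with quantile normalization, 1 and 2 with centring), and their summed level was 1579 and 991 in tumours 1 and 2 against 666 and 433 in epidermis 1 and 2. Of 32 fatty acid synthesis and elongation genes 8 were higher and 6 lower (2 and 3 held, 6 and 12 with centring, 6 and 9 with 75th percentile scaling), the desaturase genes Scd1 (2.70 ± 0.27) and Fads1 (2.31 ± 0.28) rising and Elovl7 (-3.61 ± 0.54), Elovl1 (-3.22 ± 0.25) and Acsbg1 (-3.61 ± 0.41) falling. Of 43 phospholipase genes 8 were higher and 8 lower (2 and 4 held, 7 and 13 with centring, 7 and 11 with 75th percentile scaling), with the signalling genes Plcb4 (4.63 ± 0.42) and Plch2 (2.45 ± 0.21) higher and the epidermal genes Pla2g2f (-4.36 ± 0.52), Pla2g4f (-3.92 ± 0.50), Liph (-3.40 ± 0.43) and Pld3 (-3.32 ± 0.55) lower. Of 22 prostaglandin and lipoxygenase genes 4 were higher and 8 lower (0 and 5 held, 1 and 14 with centring, 3 and 10 with 75th percentile scaling), and the falls included the lipoxygenase gene Aloxe3 (-3.51 ± 0.23), the epoxide hydrolase gene Ephx3 (-3.998 ± 0.32) and the prostaglandin D synthase gene Hpgds (-3.29 ± 0.46).

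Oxidising and conjugating enzymes were called in both directions, cytochrome P450 genes about as often as all genes. Of all genes 16.6 percent were higher and 12.5 percent lower. The shares were 14.3 and 12.9 percent for cytochrome P450 genes and 18.6 and 27.9 percent for aldehyde, alcohol and retinoid genes. They were 20.6 and 20.6 percent for redox genes, 22.6 and 29.0 for iron and haem genes and 12.5 and 20.8 for glutathione transferases. Of 70 cytochrome P450 genes 10 were higher and 9 lower (4 and 3 held, 6 and 10 with quantile normalization, 5 and 13 with centring, 7 and 10 with 75th percentile scaling). Cyp1b1 was at 1839 and 2046 in the tumours against 56.6 and 133 in the epidermis (4.23 ± 0.39, adjusted p = 0.000936), and the oxysterol hydroxylase gene Cyp7b1 (3.64 ± 0.70) and Cyp20a1 (2.65 ± 0.29) rose. Cyp17a1, a steroid hydroxylase (-3.31 ± 0.35), the fatty acid omega-hydroxylase gene Cyp4f39 (-2.97 ± 0.42) and Cyp2f2 (-2.82 ± 0.42) fell. Of 43 aldehyde, alcohol and retinoid genes 8 were higher and 12 lower (2 and 5 held, 5 and 12 with quantile normalization, 5 and 19 with centring, 7 and 17 with 75th percentile scaling). The alcohol dehydrogenase genes moved apart, Adh7 at 1302 and 569 in the tumours against 51.3 and 76.9 in the epidermis (3.47 ± 0.47) and Adh1 at 1609 and 209 in the tumours against 25178 and 22413 in the epidermis (-5.30 ± 0.80). Aldh1a7 (-4.08 ± 0.34) and Aldh3b2 (-3.33 ± 0.43) fell, and Aldh18a1, which makes proline precursors, rose (1.86 ± 0.20). Of 34 redox and NRF2 genes 7 were higher and 7 lower (1 and 1 held, 4 and 13 with centring, 4 and 11 with 75th percentile scaling), the secreted peroxidase gene Gpx3 rising (3.72 ± 0.42) and the haem oxygenase gene Hmox1 falling from 595 and 596 to 37.9 and 22.2 (-3.75 ± 0.39). Of 31 iron and haem genes 7 were higher and 9 lower (2 and 3 held, 4 and 9 with quantile normalization, 2 and 11 with centring, 5 and 11 with 75th percentile scaling), with the metalloreductase gene Steap4 (4.56 ± 0.44) and ceruloplasmin, Cp (2.76 ± 0.43), higher and Hmox2 (-2.22 ± 0.24) and the first haem synthesis enzyme gene Alas1 (-2.49 ± 0.23) lower. Of 24 glutathione transferases 3 were higher and 5 lower (0 and 3 held, 1 and 5 with quantile normalization, 0 and 8 with centring, 1 and 7 with 75th percentile scaling), including Gsta4 (-2.84 ± 0.38) and Mgst2 (-1.85 ± 0.22).

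Amino acid and one-carbon enzyme genes changed in both directions. Of 30 serine, folate and methionine genes 4 were higher and 8 lower (0 and 4 held, 2 and 8 with quantile normalization, 1 and 12 with centring, 3 and 10 with 75th percentile scaling). The glycine cleavage gene Gldc was at 35.8 and 9.60 in the tumours against 504 and 551 in the epidermis (-3.90 ± 0.48, adjusted p = 0.00206), and the serine synthesis gene Psat1 (-2.53 ± 0.20), the transsulfuration gene Cth (-2.63 ± 0.24) and the folate carrier gene Slc46a1 (-3.60 ± 0.43) also fell. Of 25 arginine, polyamine and urea genes 3 were higher and 8 lower (1 and 2 held, 2 and 12 with centring), with arginase, Arg1 (-2.70 ± 0.31), and creatine kinase B, Ckb (-2.70 ± 0.35), lower. Of 42 amino acid breakdown genes 6 were higher and 9 lower (3 and 2 held, 4 and 11 with quantile normalization, 3 and 18 with centring, 3 and 14 with 75th percentile scaling), the propionyl-CoA carboxylase gene Pcca (2.60 ± 0.36) and the taurine synthesis gene Csad (2.56 ± 0.20) rising and the alanine transaminase gene Gpt falling (-2.57 ± 0.22). Of 35 nucleotide synthesis genes 4 were higher and 5 lower (1 and 0 held, 3 and 11 with centring, 4 and 9 with 75th percentile scaling), with Ctps2 held (2.07 ± 0.27). Of 52 glycosaminoglycan genes 12 were higher and 4 lower (3 and 1 held, 11 and 7 with quantile normalization, 5 and 11 with centring, 7 and 9 with 75th percentile scaling), the proteoglycan genes Gpc6 (2.80 ± 0.33) and Sdc3 (2.43 ± 0.31) and the chondroitin sulfotransferase gene Chst11 (2.32 ± 0.25) rising and heparanase, Hpse, falling (-2.67 ± 0.31). Among 98 other glycosylation genes 13 were higher and 7 lower (3 and 2 held, 5 and 9 with quantile normalization, 5 and 16 with centring, 7 and 12 with 75th percentile scaling), with Man2a2 (2.27 ± 0.27) and B4galt3 (1.80 ± 0.23) higher and Galnt6 (-4.01 ± 0.41) and Fut2 (-3.17 ± 0.30) lower.

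Genes that make and destroy protein were lower more often than higher. Of 47 cytosolic ribosomal protein genes 2 were higher and 22 lower (0 and 1 held, 3 and 5 with quantile normalization). Their median was -0.87, and after quantile normalization it lay -0.17 from that of all genes. Of 76 mitochondrial ribosomal protein genes 2 were higher and 30 lower (0 and 1 held). Of 57 translation factor genes 5 were higher and 28 lower (1 and 6 held). The cap-binding gene Eif4e was at 1584 and 683 in the tumours against 7807 and 7636 in the epidermis (-2.87 ± 0.38, adjusted p = 0.00263), and Eif3l (-2.52 ± 0.33), Eif2b1 (-2.46 ± 0.35) and Eif6 (-2.34 ± 0.33) fell, while Eif5a2 rose (2.89 ± 0.35). Rpl14 (-2.49 ± 0.25), Mrps22 (-2.26 ± 0.23) and the ribosome assembly gene Nhp2 (-2.26 ± 0.27) were the members of their lists that held, and 19 of 53 biogenesis genes were lower and 4 higher (0 and 35 with centring, 0 and 27 with 75th percentile scaling). Of 37 aminoacyl-tRNA synthetase genes 1 was higher and 13 lower (0 and 3 held), with the arginyl, seryl and glycyl enzymes Rars (-2.42 ± 0.29), Sars (-2.27 ± 0.28) and Gars (-2.11 ± 0.21) held. Proteasome genes were lower for 27 of 47 members and higher for 2, with a median of -0.94. The regulatory particle gene Psmd8 was at 909 and 394 in the tumours against 9021 and 8104 in the epidermis (-3.80 ± 0.38, adjusted p = 0.00109), and Psmc5 (-2.61 ± 0.29) and Psmd2 (-2.09 ± 0.30) held, while Psmb8 of the immunoproteasome rose. Counts called lower fell to 6 and 6 for proteasome genes, 7 and 8 for translation factor genes, 1 and 2 for cytosolic ribosomal protein genes and 1 and 3 for mitochondrial ribosomal protein genes without epidermis array 1 and without array 2.

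**Figure D5:**
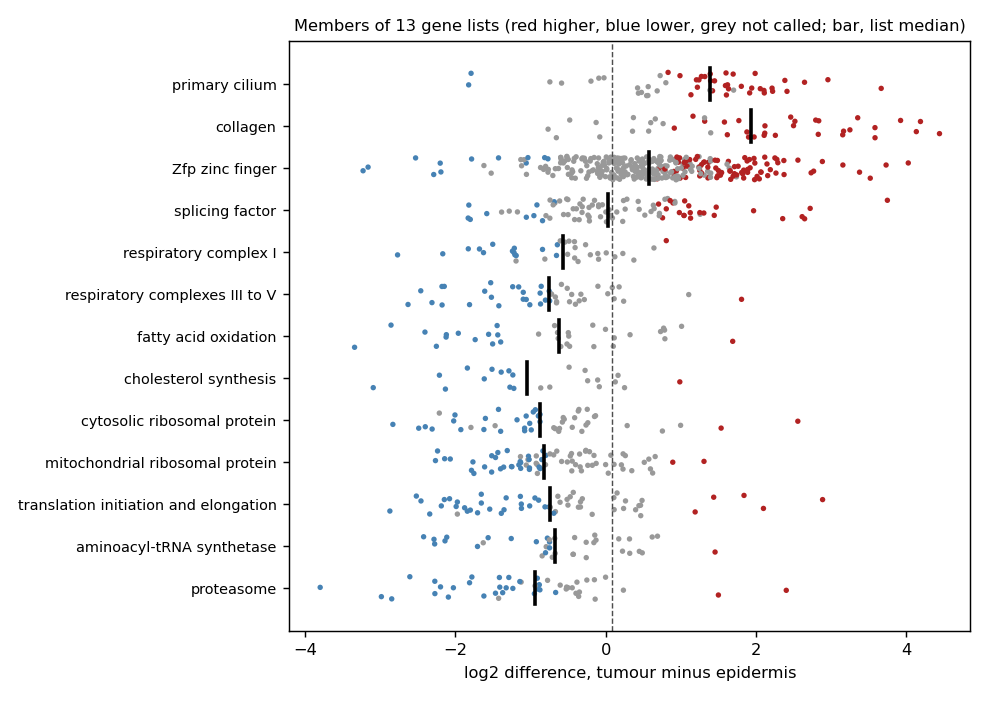
Log2 difference, tumour minus epidermis, of every measured member of 13 gene lists, with red points called higher, blue points called lower and grey points not called. Black bars are list medians, from 1.94 for collagen to -1.04 for cholesterol synthesis, and the dashed line is the median of all genes (0.09).

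Folding, lysosome and splicing genes were mixed. Of 39 chaperone genes 2 were higher and 13 lower (0 and 1 held, 3 and 9 with quantile normalization), with the small heat shock gene Hspb1 at 3406 and 949 in the tumours against 21165 and 24022 in the epidermis (-3.63 ± 0.54). Of 37 ER folding genes 4 were higher and 10 lower (0 and 2 held, 1 and 18 with centring, 2 and 16 with 75th percentile scaling), including Chac1 (-3.86 ± 0.27) and Trib3 (-3.03 ± 0.28), which ATF4 induces under stress. Of 51 proton pump and lysosome genes 4 were higher and 19 lower (1 and 3 held, 2 and 29 with centring, 2 and 26 with 75th percentile scaling), the proton pump gene Atp6v1c2 (-3.75 ± 0.27), Cln8 (-2.98 ± 0.24) and the fucosidase gene Fuca1 (-2.55 ± 0.31) falling and Hexa rising (1.92 ± 0.25). Of 37 autophagy genes 7 were higher and 11 lower (0 and 1 held, 4 and 12 with quantile normalization, 3 and 17 with centring, 5 and 16 with 75th percentile scaling), with Gabarapl2 held (-2.55 ± 0.20). Of 86 splicing factor genes 22 were higher and 9 lower (4 and 0 held, 7 and 30 with centring, 10 and 22 with 75th percentile scaling). Ptbp2, the neural splicing repressor, was at 3883 and 9016 in the tumours against 367 and 493 in the epidermis (3.75 ± 0.40, adjusted p = 0.00133), and Prpf40b (2.72 ± 0.32), Prpf4b (2.65 ± 0.24) and Prpf39 (2.36 ± 0.29) rose too. With epidermis array 1 left out 5 splicing factor genes were called higher, and with array 2 left out 4.

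Of primary cilium genes 64 percent were higher, against 16.6 percent of all genes. The primary cilium is the organelle in which vertebrate cells process GLI proteins. Of 50 cilium genes 32 were higher and 2 lower (20 and 2 with quantile normalization, 15 and 4 with centring, 22 and 4 with 75th percentile scaling), and 7 held as rises. Their median of 1.39 was 1.302 above that of all genes, and 1.12 above it after quantile normalization. Tctn1, a transition zone gene, was at 752 and 1046 in the tumours against 37.9 and 77.8 in the epidermis (3.67 ± 0.41, adjusted p = 0.00152). Ift122 (2.65 ± 0.27) and Ift57 (2.38 ± 0.25), of the intraflagellar transport trains, and the Joubert syndrome gene Ahi1 (2.41 ± 0.28) held as well. Dropping epidermis array 1 left 8 cilium genes called higher, and dropping array 2 left 14. Among 86 tubulin, kinesin and microtubule genes 14 were higher and 12 lower (4 and 2 held, 9 and 14 with quantile normalization, 6 and 24 with centring, 9 and 19 with 75th percentile scaling). The axonal motor gene Kif5c was at 850.1 and 1254 in the tumours against 26.0 and 12.9 in the epidermis (4.91 ± 0.41), and the doublecortin-like kinase genes Dclk1 (4.27 ± 0.36) and Dclk3 (3.66 ± 0.33) and Dnah1 (3.42 ± 0.33) rose, while Map2 was at 249.9 and 164 in the tumours against 7379.9 and 5482 in the epidermis (-4.87 ± 0.28) and Tuba8 fell (-3.67 ± 0.29).

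Actin and vesicle genes were called higher about as often as all genes, of which 16.6 percent were higher and 12.5 percent lower. The shares were 18.8 and 17.4 percent for septin and actin regulators and 20.4 and 5.6 percent for myosin and tropomyosin genes. They were 18.4 and 24.6 percent for RAB and vesicle fusion genes. Of 69 septin and actin regulator genes 13 were higher and 12 lower (5 and 1 held, 6 and 22 with centring, 9 and 21 with 75th percentile scaling), with Synpo2 (4.49 ± 0.25), Synpo (3.25 ± 0.41) and scinderin, Scin (2.73 ± 0.41), higher and ezrin, Ezr (-2.24 ± 0.28), lower. Of 54 myosin and tropomyosin genes 11 were higher and 3 lower (3 and 1 held, 9 and 10 with centring, 9 and 8 with 75th percentile scaling), Myo5b falling (-3.11 ± 0.31) and the myosin light chain kinase gene Mylk rising (2.60 ± 0.40). Of 114 RAB and vesicle fusion genes 21 were higher and 28 lower (4 and 7 held, 14 and 30 with quantile normalization, 11 and 43 with centring, 16 and 38 with 75th percentile scaling). Rab25, an epithelial recycling GTPase, was at 754 and 201 in the tumours against 9957 and 10969 in the epidermis (-4.68 ± 0.53, adjusted p = 0.00166), and Rab27b (-3.89 ± 0.29), Stx19 (-3.10 ± 0.30) and Sytl1 (-3.10 ± 0.32) fell while the vesicle fusion genes Vamp1 (3.83 ± 0.26), Vamp5 (3.13 ± 0.42) and Stx1a (2.38 ± 0.32) rose.

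Of 28 mitosis genes 0 were higher (2 with an unadjusted p under 0.05) and 5 lower (0 and 0 held). Ube2c (-1.84 ± 0.42) and Plk1 (-1.81 ± 0.46) were the larger falls, the first not called without either epidermis array and the second not without epidermis array 2 or the variance trend. The tumours differed from each other here, with a median 0.87 higher in tumour 2 than in tumour 1 on the log2 scale. Without tumour 1, 6 mitosis genes were higher and 5 lower, and without tumour 2 the counts were 0 and 8. Without epidermis array 1, 1 mitosis gene was called lower, against 0 without array 2. Of 38 replication genes 3 were higher and 6 lower (0 and 0 held, 2 and 11 with quantile normalization, 0 and 16 with centring, 0 and 11 with 75th percentile scaling), with Pold1 (1.28 ± 0.30) and Rpa1 (1.06 ± 0.31) the rises and Pcna (-1.71 ± 0.31) and Cdc6 (-1.51 ± 0.33) the larger falls, and none of these 4 calls stood without either epidermis array. Without tumour 1, 8 replication genes were higher and 9 lower. Of 60 DNA repair genes 11 were higher and 4 lower (2 and 0 held, 7 and 7 with quantile normalization, 5 and 15 with centring, 7 and 10 with 75th percentile scaling), including the damage sensor kinase gene Atm (1.98 ± 0.25) and the p53 target Ddb2 (2.004 ± 0.23). Among 23 CDK inhibitor and cyclin genes 3 were higher and 5 lower (1 and 1 held, 2 and 6 with centring). Ccnd1, cyclin D1, was at 4099 and 3476 in the tumours against 941 and 1097 in the epidermis (1.88 ± 0.21, adjusted p = 0.00165), and the inhibitor gene Cdkn1a at 3873 and 2019 in the tumours against 15391 and 14169 in the epidermis (-2.39 ± 0.32, adjusted p = 0.00284). Of 24 histone genes 2 were higher and 6 lower (0 and 1 held), with the linker histone gene H1f2 held (-2.18 ± 0.23).

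The class and length of genes, which took no part in choosing them, also went with the share called. Of 1354 genes that RefSeq types as long noncoding RNA 141 were higher and 20 lower, and 29 and 1 held (75 higher and 109 lower with centring). As deposited 10.4 percent were higher and 1.5 percent lower, both under the 16.6 and 12.5 percent of all genes. These genes were dim, with a median tumour mean of 39.9 against 318.9 for protein-coding genes. Among protein-coding genes the share called higher was 10.0 percent of 4561 genes that span up to 10 kb of genome and 14.9 percent of 5301 that span 10 to 30 kb. It was 22.5 percent of 4424 genes of 30 to 100 kb and 27.1 percent of 2182 longer genes. The shares called lower in the same order were 15.2, 15.0, 12.7 and 8.4 percent. The median difference ran from -0.12 in the shortest to 0.39 in the longest class, and from -0.76 to -0.25 with centring. In the shortest and longest classes 123 and 201 genes were called higher without epidermis array 1, and 142 and 210 without array 2. Genes are not independent replicates, so these shares are descriptions, and the part of the 3' to 5' ratios in them was not tested.

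Levels in the untreated PDKC1 line were set beside those of the held genes. Of the 641 held higher genes 117 had a PDKC1 intensity of at least 50 percent of the tumour mean, and 234 had under 10 percent. Among the 457 held lower genes 62 had at least 50 percent of the epidermis mean in PDKC1 and 269 under 10 percent. Trps1, Zeb2 and Wif1 are examples of the first kind, and Nrcam, Prrx1 and Pdgfrb of those low in the line. With 1 array there is no spread for PDKC1, and no test was made. The PDKC1 array also differed from the tissue arrays in RNA amount and in its Actb 3' to 5' ratio. The part of these in the levels was not tested.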

How the data were processed

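The values are linear signal intensities as deposited by the authors in 1 table of 45101 probe sets and 7 arrays. How they were summarised is not stated in the labels or the file. Each column has a 2 percent trimmed mean of 500.0, so the authors' intensities appear scaled to a common mean. Depth does not apply to arrays, and their number limits the precision.

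Probe sets were named through the platform annotation: 34945 had 1 gene, 932 several and 9160 none. A gene (18193 in all) was represented by its probe set with the highest mean log2 over all arrays. The 2 tissues were fitted on the log2(intensity + 16) scale by lmFit and eBayes with a variance trend (limma 3.58.1, R 4.3.3). Adjusted p-values are Benjamini-Hochberg values over all 18193 genes, and the threshold was 0.05. On simulated data with 50 changed genes per size, 0, 10, 18 and 32 were called at log2 changes of 1, 2, 3 and 4, with 1 false call. The replicate numbers do not pair the samples (correlation of deviations -0.0006).

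Members and lists were chosen with earlier results of these data known, and 1 list is not reported here. Named genes were the 20 largest held differences each way with a group mean of at least 500 and, per list, up to 4 held each way (or up to 2 called each way, or the 2 brightest, where none held). Predicted genes with Rik or Gm names were left out of the first set. Alternatives were 3 scalings, 2 pseudocounts (4 and 64), a filter on dim genes (mean over the 40th percentile), 2 other probe set choices, every probe set tested alone, no variance trend, a replicate block, all 7 arrays in the fit and each tissue array left out. Promoter windows and gene coordinates are from RefSeq (GRCm38.p6).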

Additional observations from a re-analysis of the deposited data

Results flagged for a closer look

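Probe sets without a gene name took no part in the comparison and carried differences of their own. Of 9160 such probe sets 2388 were higher in the tumours (26.1 percent) and 231 lower (2.5 percent) by limma, with a median difference of 0.50 on the log2 scale. Of 34945 probe sets with 1 gene 16.5 percent were higher and 10.7 percent lower, with a median of 0.13, and of 932 with several genes 112 were higher and 169 lower, with a median of -0.17. In the unnamed probe set with the largest rise the intensities were 2831 and 1364.1 in the tumours against 2.9 and 1.9 in the epidermis, and in the next they were 7065 and 10888 against 41.5 and 100.8. In that with the largest fall they were 36.4 and 67.7 in the tumours against 4286 and 4435, and in the next 646.6 and 6.5 against 3771 and 5137.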

How the results depend on the processing

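The genes called higher and lower, 3015 and 2267, depended most on the scaling and on whether the epidermis pair took part in the estimate of spread. Without 1 epidermis array the spread comes from the tumour pair alone. The median absolute log2 difference between arrays was 0.44 in the tumour pair and 0.27 in the epidermis pair. Centring each array on its median gave 1463 and 4713, 75th percentile scaling 2013 and 3752 and quantile normalization 2146 and 2665. Testing every probe set alone gave 5815 and 3725 of 34945. With 1 array left out, its group's lone sample being assumed to vary like the other group, the counts ranged from 840 to 3553 higher and from 537 to 3353 lower, lowest without epidermis array 1 and highest without tumour 1. The fit with the replicate number as a block gave 2893 and 2224, and the numbers do not pair the samples. The other counts stayed within 1.5 times: pseudocount 4 gave 2995 and 2252, pseudocount 64 3013 and 2269, the dim filter 2840 and 2452 of 10916 genes, the mean of probe sets 2676 and 1894, the probe set brightest in tissue 3119 and 2245, no variance trend 2406 and 1573 and all 7 arrays 3855 and 3101. A fold limit of at least 2 left 2690 and 1950. With centring, 75th percentile scaling and quantile normalization the order of the totals turned, with more genes lower than higher. No named called gene changed direction under these alternatives. Of 419 named called genes 393 stayed called without epidermis array 1 and 391 without epidermis array 2, and at least 403 did under each other alternative, except that the dim filter tested 391, all of which stayed called. List medians moved by more than the spread between replicates in 127 of 129 lists with centring, 104 with 75th percentile scaling and 81 with quantile normalization. The self-test recovered 10 of 50 genes changed by 2 on the log2 scale. Few genes were changed in it, whereas 29.0 percent were called between the tissues. The adjustment was therefore stricter there, and its rate cannot be read as the share missed in the tissue fit.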

Other observations

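The 4 noncoding RNA genes that follow were chosen after their values were seen and stand for no theme. Of the 1354 genes typed as long noncoding RNA, 10.4 percent were higher and 1.5 percent lower as deposited. The shares of all genes were 16.6 and 12.5 percent. With centring 75 long noncoding RNA genes were higher and 109 lower. Meg3, an imprinted noncoding RNA of the Dlk1 locus, was at 2767 and 4156 in the tumours against 204 and 194 in the epidermis (3.99 ± 0.27, limma adjusted p = 0.000467). Kcnq1ot1, an imprinted antisense RNA of Kcnq1, was at 939 and 1333 in the tumours against 37.3 and 124 in the epidermis (3.71 ± 0.50), and Snhg14, an imprinted host of small nucleolar RNAs, at 1292 and 1492 in the tumours against 102 and 95.4 in the epidermis (3.61 ± 0.28). Mir205hg, which hosts an epithelial miRNA, was at 1827 and 1916 in the tumours against 172 and 103 in the epidermis (3.66 ± 0.31). These 4 stayed called under all 12 alternatives.

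The 2 tumours differed from each other by at least 4-fold for 342 genes, of which 168 were higher in tumour 2 and 174 in tumour 1, against 133 genes between the 2 epidermis arrays. Krt2, a keratin of the upper epidermis, was at 18385 and 234 in the tumours against 25.8 and 18.9 in the epidermis. Neutrophil markers summed to 3169.7 and 9988 in tumours 1 and 2 against 393 and 301 in epidermis 1 and 2, of which S100a8 and S100a9 gave 3029 and 9808 in the tumours against 109 and 150.0 in the epidermis and the other 5 members, none of them called, 140.5 and 180.1 in the tumours against 285 and 151 in the epidermis. Schwann cell and nerve markers summed to 5648 and 3521 in tumours 1 and 2 against 1571 and 1469 in epidermis 1 and 2. Merkel cell markers summed to 452 and 415 in tumours 1 and 2 against 1485 and 1281 in epidermis 1 and 2. Chga alone was called, at 64.8 and 52.6 in the tumours against 1119.7 and 805 in the epidermis, and the other 7 summed to 388 and 363 in the tumours against 366 and 476 in the epidermis.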
